A study of Mus musculus with 6 samples.

Results

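The 5 genes described here are Fn1, which encodes fibronectin, and Thbs1, Thbs2, Thbs3 and Thbs4, which encode thrombospondins. They were taken by symbol from the count tables of 6 single-cell RNA sequencing libraries. All 5 symbols were found in each of these tables, which list 30828 to 32285 gene rows.

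The libraries came from male Pdgfra reporter mice, labelled Pdgfra-GFP JAX# 007669 in the single-dose experiment and PDGFRa-EGFP in the repetitive one, and 10 to 14 weeks old. GFP marks cells that express Pdgfra, the receptor for platelet-derived growth factor that identifies many lung fibroblasts (FBs), and the GFP+ lung cells were sorted. In the single-dose experiment, mice received PBS in 50 ul or 1 dose of bleomycin, a DNA-damaging drug that injures the lung, by oropharyngeal aspiration. For this dose the labels disagree, giving 2 U/kg in the protocol but 4 U/kg where the treatment is named. The methods of the study give 2 U/kg. In the repetitive experiment, PBS or bleomycin (1, 1 and then 0.5 U/kg) was given once a week for 3 weeks in 50 ul. Lungs were taken 14 days after the last dose. For the organoids, tomato+ AEC2s, the surfactant-producing alveolar type 2 epithelial cells, came from SpcCreER donors given tamoxifen (2 doses of 1 mg/kg), in which only cells with an active Sftpc promoter are marked. They were grown for 2 weeks in Matrigel with GFP+ FBs of donors (written PDGFRa-EGF). These donors had received PBS (normal organoids) or 2 U/kg bleomycin (fibrogenic organoids) 14 days earlier. The labels give the mix as 10 to 1 without a direction, and the methods of the study describe more FBs than AEC2s. Each condition was 1 library of cells pooled from 3 mice, so no difference between conditions could be set against the spread between mice, and no test between conditions was made.

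Fibronectin is a large glycoprotein that cells assemble through integrins into the provisional matrix of wounds, on which collagen is then laid down. Thrombospondins are secreted proteins that act on the matrix and on cells more than they build structure. Thbs1 and Thbs2 form trimers with type 1 repeats that bind receptors such as CD36, and Thbs1 can activate latent TGF-β, while Thbs3 and Thbs4 lack these repeats and form pentamers.

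Levels are given in CPM, the unique molecular identifiers (UMIs) of a gene per 1000000 UMIs of all genes in the same cells. All intervals are exact 95% intervals and cover counting error only. The libraries held 1060 and 1015 barcodes (single PBS and bleomycin), 6139 and 10737 (repetitive), and 5441 and 8894 (organoids with normal and fibrogenic FBs). Depth differed between the libraries that are compared: the median was 6780.5 and 10711 UMIs per barcode, 10178 and 2478, and 36841 and 4289.5, from totals of 7201081 to 238618743 UMIs. Between 2 and 28 barcodes were shared by both libraries of an experiment. Clusters were named from marker genes, with the 5 genes left out of the clustering, and FBs made up 73.7% to 86.9% of the barcodes of the lung libraries and 36.6% and 41.9% of those of the organoids. All 6 FB markers were detected in the FBs of every library, at a summed level of 4944 to 17057 CPM.

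Fn1 lies on chromosome 1 (71585520-71653200, minus strand, GRCm38). Thbs1 lies on chromosome 2 (118111876-118127133, plus strand), Thbs2 on chromosome 17 (14665500-14694235, minus strand), Thbs3 on chromosome 3 (89215180-89226837, plus strand) and Thbs4 on chromosome 13 (92751590-92794818, minus strand). In the annotation, Fn1 overlaps the antisense gene Apol7d, Thbs1 the noncoding gene Gm29233 and Thbs3 the protein-coding gene Mtx1, all on the opposite strand. No annotated gene overlaps Thbs2 or Thbs4.

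Fn1 was higher after bleomycin in both lung experiments. In the FBs of single-dose mice it stood at 492 CPM with PBS (475 to 510; 885 FBs) and 4081 CPM with bleomycin (4041 to 4121; 782 FBs). In the repetitive experiment it stood at 771 CPM with PBS (764 to 778; 5333 FBs) and 2903 CPM with bleomycin (2889 to 2917; 7908 FBs). These are 8.29-fold and 3.76-fold differences, or log2 ratios of 3.05 (3.00 to 3.11) and 1.91 (1.90 to 1.93). Of all genes with at least 50 UMIs, 8.72% of 10597 were at least 2-fold higher in the single-dose FBs and 10.5% of 15005 in the repetitive FBs, while 4.44% and 3.61% were at least 2-fold lower. The median log2 ratio of all genes was 0.065 and 0.12, so the repetitive values carry an upward shift of the latter size.

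Among the other members, Thbs2 and Thbs4 were also past 2-fold higher in both experiments, Thbs1 in the single-dose experiment, and Thbs3 in neither. That is 4 of 5 members in the single-dose FBs and 3 of 5 in the repetitive FBs, and 0 of 5 were past 2-fold lower in either.

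**Figure D1:**
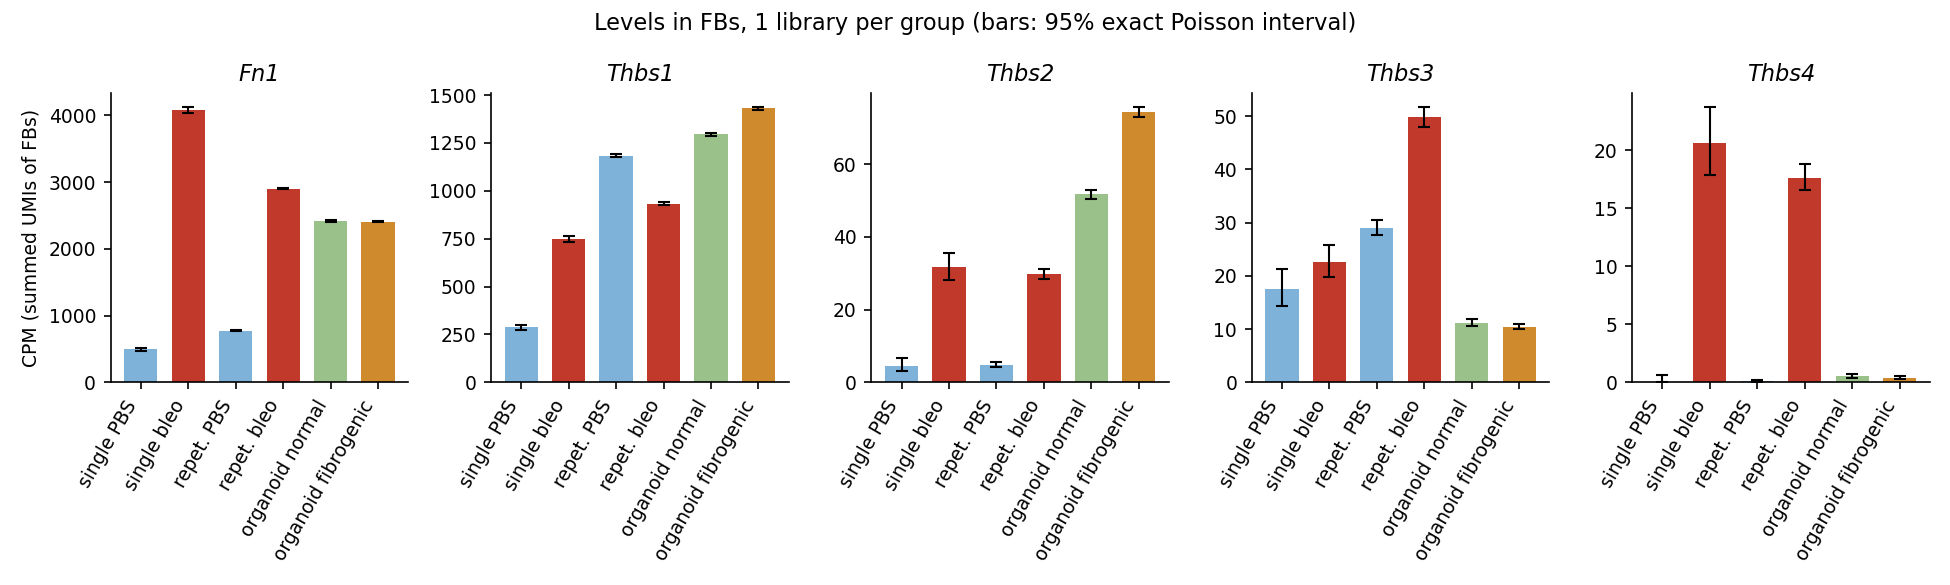
Level of each gene in the FBs of the 6 libraries, in CPM of summed UMIs (vertical axes start at 0 and differ between genes; bars are 95% exact Poisson intervals; 1 library per group). Fn1, Thbs2 and Thbs4 stand higher in both bleomycin libraries than in their PBS libraries, whereas Thbs1 is higher after a single dose (748 against 286 CPM) and lower after repetitive doses (932 against 1183 CPM).

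The share of FBs with a UMI of Fn1 moved the same way. After each barcode was thinned to 2000 UMIs, which left out 48, 29, 158 and 3198 shallower FBs, Fn1 was seen in 52.1% and 92.6% of the single-dose FBs (PBS and bleomycin) and in 60.2% and 85.1% of the repetitive FBs. Unthinned, the shares were 78.6%, 96.2%, 81.2% and 88.9%. Fn1 UMIs also lay in cells that are not a known source of it. In lymphocytes of the same libraries, the thinned share was 15.4% and 73.7% in the single-dose experiment and 11.4% and 36.5% in the repetitive one (unthinned 18.2%, 85.5%, 16.9% and 53.6%). Median depth was 2713, 4465, 3460 and 3634 UMIs in these lymphocytes and 6890, 11650.5, 10543 and 2915.5 UMIs in the FBs. The lymphocytes join a T or NK and a B cluster. The T or NK cluster also passed the detection rule for 3 of 6 FB markers in each experiment, and for 5 of 6 cycling markers in the single-dose one. Lymphocytes are therefore not a background known to be free of FBs, and whether FBs lay among these barcodes was not tested.

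The level in those lymphocytes was 115 CPM with PBS and 1425 CPM with bleomycin after a single dose (33 and 62 barcodes), and 229 and 1728 CPM after repetitive doses (178 and 291 barcodes). Fn1 in lymphocytes was thus higher in the bleomycin libraries too, and below the FB level in each library. Macrophages or monocytes, which can express Fn1 themselves, held 188 and 1976 CPM after a single dose (39 and 42 barcodes), and 435 and 1726 CPM after repetitive doses (79 and 768 barcodes). What part RNA free in the suspension had in the FB difference was not tested.

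Fn1 differed by FB group as well as by condition. The groups were LipoFB-like cells, which carry lipid droplets and dominate normal alveoli, MatrixFB-like cells of the adventitia, injured FB-like cells and MyoFB-like cells, the contractile FBs of fibrotic lung. LipoFB-like cells with PBS held 632 CPM of Fn1 in the single-dose experiment (547 barcodes) and 1262 CPM in the repetitive one (1264 barcodes). These groups are not alike in makeup. The single-dose group joins cluster A (572 CPM; Mapt and G0s2 among its leading genes) and cluster F (747 CPM; Colq and Slc7a10), while the repetitive group is cluster C alone (Colq and Slc7a10), and cluster B, with Plin2, G0s2, Mapt, Slc7a10 and Colq among its leading genes, stayed unnamed at 974 CPM. With bleomycin, only 11 and 23 barcodes were LipoFB-like, too few for a comparison. The name needed markers raised over other FB clusters, so these are not counts of FBs that kept LipoFB markers. When all barcodes were clustered, a cluster with 309 of 313 barcodes from single-dose bleomycin passed detection for 7 of 8 LipoFB markers. Another, with 1532 of 1543 from repetitive bleomycin, passed for 8 of 8. A further single-dose cluster, all 254 barcodes from bleomycin, passed for 2 of 8.

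MyoFB-like cells as a group held 4876 CPM after a single dose (65 barcodes) and 4939 CPM after repetitive doses (475 barcodes). Injured FB-like cells held 4513 CPM (515 barcodes) and 2885 CPM (1914 barcodes). The log2 ratio of MyoFB-like over injured FB-like cells was 0.11 (0.075 to 0.15) after a single dose and 0.78 (0.75 to 0.80) after repetitive doses. The injured FB-like groups of the experiments also differ in makeup. Single-dose cluster B, with Cpm and C6 among its leading genes, was named injured FB-like and held 5084 CPM (270 barcodes). Repetitive cluster I, with Cpm and C6 among its own, stayed unnamed and held 4961 CPM (782 barcodes). The leading genes of B also held the injured FB markers Hp, Lcn2 and Saa3, and those of I the LipoFB markers Ces1d and Col13a1. Cluster B lay above the MyoFB-like level of its library and cluster I at about that level, and the ratios of the experiments are not compared. MyoFB-like cells contributed 18.2% and 13.03% of the Fn1 UMIs of FBs, and injured FB-like cells 75.2% and 43.0%. Of the FB UMIs of all genes, MyoFB-like cells held 15.3% and 7.66%, and injured FB-like cells 68.0% and 43.3%. Groups were formed from these same cells, so these differences are descriptions.

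MatrixFB-like cells were present in all 4 lung libraries. Their Fn1 level was 390 CPM (332 to 454; 70 barcodes) with PBS and 1666 CPM (1595 to 1740; 162 barcodes) with single-dose bleomycin, a log2 ratio of 2.10 (1.87 to 2.33). After repetitive doses it was 889 CPM (861 to 917; 574 barcodes) against 1418 CPM (1397 to 1440; 2245 barcodes), a log2 ratio of 0.67 (0.62 to 0.72). Of those 2245 barcodes, 1125 were in cluster E (2298 CPM, a median of 1684 UMIs a barcode), which held 17 PBS barcodes, so the pooled ratios of MatrixFB-like cells in that experiment, for each member, compare different clusters. Both bleomycin values were close to, or below, the lymphocyte levels of the same libraries. By thinned share, MatrixFB-like cells exceeded lymphocytes after repetitive bleomycin (73.8% against 36.5%) and were near them after a single dose (79.3%, 71.8 to 85.6, against 73.7%, 60.3 to 84.5). By level, the repetitive value lay below the 1728 CPM of lymphocytes and the single-dose value above their 1425 CPM. Since level and share do not give the same picture, neither bleomycin value is taken as clear of the lymphocytes.

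Within single FB clusters of the repetitive experiment that had at least 50 barcodes in both libraries, the Fn1 level was higher with bleomycin in 4 of 5. The log2 ratio was 1.74 in cluster F (364 and 1214 CPM), 1.03 in cluster G (530 and 1079 CPM), 0.90 in cluster K (523 and 975 CPM) and 2.73 in cluster M (63.7 and 423 CPM). Cluster O, a MatrixFB-like cluster with Sult1e1 and Dpp4 among its leading genes, already held 2257 CPM with PBS and was at 2174 CPM with bleomycin (log2 ratio -0.054, -0.14 to 0.028). The bleomycin levels of F, G, K and M lay below the 1728 CPM of lymphocytes in the same library. M with PBS lay below their 229 CPM. The lymphocyte level is thus no floor for FBs, and these levels cannot be set against a known background. What part free RNA had in the differences was not tested, so no difference in expression is read from these clusters. Clusters are lettered by size, and G, K and O were MatrixFB-like, while F and M were not named.

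Thbs1 was higher after a single dose and lower after repetitive doses. Its level in FBs was 286 CPM (273 to 300) with PBS and 748 CPM (731 to 765) with single-dose bleomycin, a log2 ratio of 1.39 (1.31 to 1.46). Lymphocytes of these libraries held 238 CPM (33 UMIs) and 325 CPM. The PBS level, the base of this ratio, thus cannot be told from that of lymphocytes. MatrixFB-like cells of that library held less (52.3 CPM), so the lymphocyte level is no floor for FBs. In the repetitive experiment the FB level was 1183 CPM (1174 to 1192) with PBS and 932 CPM (924 to 940) with bleomycin, a log2 ratio of -0.34 (-0.36 to -0.33). Lymphocytes there went the other way, from 155 to 588 CPM. The PBS levels of FBs in the 2 experiments were farther apart than the bleomycin levels. The experiments were processed separately, and the difference between their ratios was not tested. Thinned shares were 30.5% and 48.7% after a single dose and 46.7% and 47.7% after repetitive doses, and unthinned shares 46.2% and 78.5%, then 65.3% and 58.2%. In the repetitive experiment the share was thus lower with bleomycin before thinning and not after it, which left out 3198 of 7908 bleomycin FBs.

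The high PBS level of the repetitive experiment came from part of the FBs. Unnamed FBs, 64.9% of the FB barcodes there, held 93.3% of the Thbs1 UMIs at 1534 CPM, against 299 CPM in LipoFB-like and 123 CPM in MatrixFB-like cells. Cluster H, led by the stress-response genes Nr4a2 and Maff, held 2595 CPM (746 barcodes) and cluster B 1757 CPM (1525 barcodes). Cluster B was unnamed but shares leading genes with LipoFB-like clusters, among them Slc7a10, Colq and Mapt, so low Thbs1 is not read for LipoFB-like cells as a whole. In the same library clusters C, F and P held 299 to 301 CPM. In the single-dose PBS library the range over clusters was 52.3 to 377 CPM.

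With bleomycin, Thbs1 was highest in MyoFB-like cells among the named groups of the single-dose experiment, at 1521 CPM, against 719 CPM in injured FB-like cells (log2 ratio 1.08, 1.01 to 1.15). The order was the same after repetitive doses, at 1749 and 1185 CPM (0.56, 0.53 to 0.60). Within the injured FB-like cells of the repetitive experiment, cluster D held 650 CPM, cluster J 2440 CPM and the small cluster S 2956 CPM (60 barcodes). Cluster J was led by Nr4a2 and Nr4a3. Smooth muscle or mural-like cells, seen only after repetitive bleomycin with at least 50 barcodes, held 614 CPM. That level and the 650 CPM of cluster D lay close to the 588 CPM of lymphocytes in the same library.

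Within the clusters present in both repetitive libraries, the log2 ratio of Thbs1 was 0.35 in cluster F (0.17 to 0.54) and -0.39 in M (-0.55 to -0.24). With bleomycin both levels (382 and 384 CPM) lay below the 588 CPM of lymphocytes. So did those of the MatrixFB-like clusters G, K and O (73.3 to 201 CPM). Their log2 ratios were -0.83 (-1.05 to -0.60), -0.22 (-0.55 to 0.097) and 0.89 (0.55 to 1.23). The clusters went different ways, so no common direction is read from them. Clusters B, C and H of the PBS library had under 50 barcodes with bleomycin.

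Early response genes, which cells induce within minutes of a stimulus or of tissue dissociation, were read beside Thbs1. Their summed level in FBs was 12552 and 4858 CPM in the single-dose and 15632 and 8034 CPM in the repetitive experiment (PBS and bleomycin). It was 23876 CPM in cluster H and 23325 CPM in cluster B of the repetitive PBS library. It was 23766 CPM in the MatrixFB-like cluster K, where Thbs1 was at 124 CPM. In clusters C, F and P, with Thbs1 at 299 to 301 CPM, it was 2083, 6090 and 12661 CPM. In clusters G, O and M, with Thbs1 at 130, 109 and 504 CPM, it was 15568, 17559 and 20846 CPM. Over the clusters of that library, Pearson's r between the summed level and Thbs1 was 0.21 (9 clusters), and in the repetitive bleomycin library 0.14 (14 clusters). In the single-dose libraries, with 4 clusters each, it was -0.075 (PBS) and -0.97 (bleomycin). The clusters of a library share its depth and its free RNA. These correlations pool MatrixFB-like clusters with the others, and what part the early response had in the Thbs1 level was not tested.

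In MatrixFB-like cells, Thbs1 was at 52.3 and 126 CPM after a single course and at 123 and 195 CPM after repetitive doses (PBS and bleomycin). Lymphocytes of the same libraries held 238 and 325 CPM, and 155 and 588 CPM. All 4 MatrixFB-like levels thus lay below those of lymphocytes, which are therefore no floor for FBs. What part free RNA had in the MatrixFB-like levels was not tested, so no difference in expression is read from them.

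**Figure D2:**
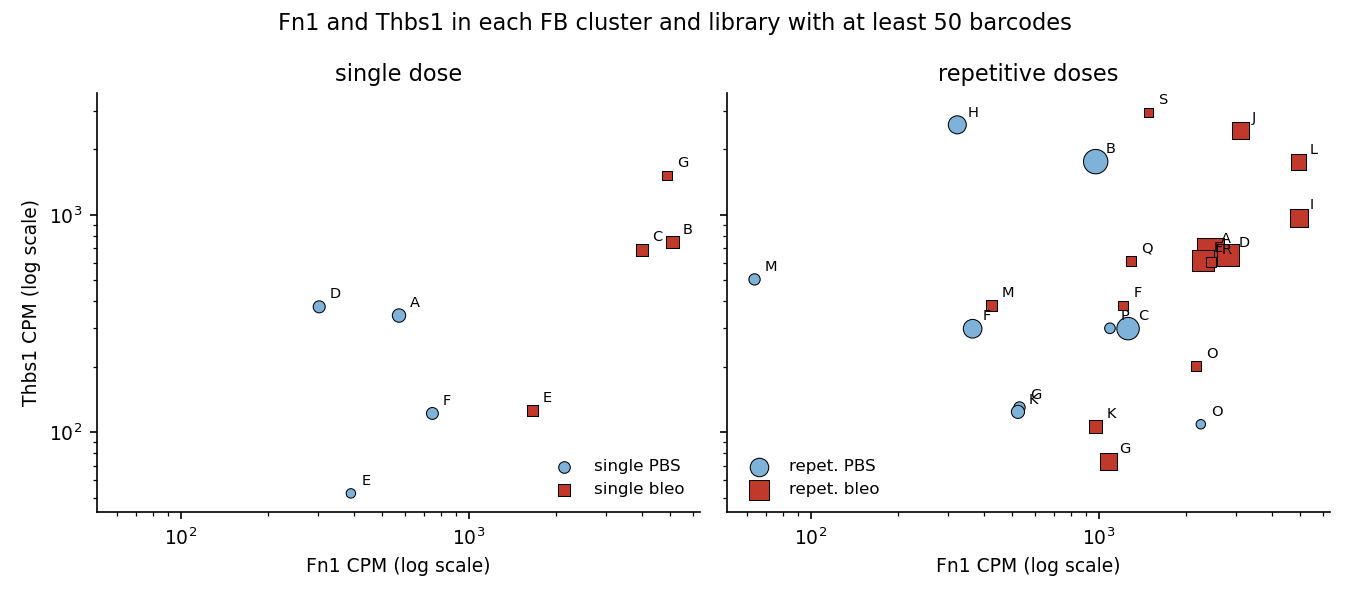
Level of Fn1 (horizontal) and Thbs1 (vertical) in each FB cluster and library with at least 50 barcodes, both in CPM on log scales, with cluster letters of each experiment and larger points for more barcodes. In the single-dose panel the bleomycin clusters lie right of the PBS clusters, in the repetitive panel the ranges of Fn1 overlap, and the highest PBS points for Thbs1 are H and B at 2595 and 1757 CPM.

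Thbs2 was low in FBs of both PBS libraries and higher with bleomycin. Its level was 4.52 CPM (2.98 to 6.57; 27 UMIs) and 31.7 CPM (28.3 to 35.4; 310 UMIs) in the single-dose FBs, a log2 ratio of 2.81 (2.24 to 3.44). It was 4.85 CPM (4.30 to 5.46; 282 UMIs) and 29.7 CPM (28.3 to 31.1; 1682 UMIs) in the repetitive FBs, a log2 ratio of 2.61 (2.43 to 2.80). Levels were close in the 2 experiments, and bleomycin and PBS were 7.02-fold and 6.11-fold apart.

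Thbs2 was the member that most separated MatrixFB-like from LipoFB-like cells with PBS. MatrixFB-like cells held 40.4 CPM in the single-dose library and 53.5 CPM in the repetitive one. LipoFB-like cells held 1 UMI (0.288 CPM) and 0 UMIs, which allows up to 3 UMIs. From 7.91% and 10.8% of the FB barcodes, MatrixFB-like cells gave 17 of 27 and 241 of 282 (85.5%) of the Thbs2 UMIs. Lymphocytes of the PBS libraries held 0 UMIs of Thbs2.

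With bleomycin, Thbs2 was high in MyoFB-like cells as well. It was at 100.004 CPM in MatrixFB-like and 77.8 CPM in MyoFB-like cells after a single dose, and at 69.7 and 84.6 CPM after repetitive doses, against 8.87 and 12.4 CPM in injured FB-like cells. MyoFB-like cells exceeded injured FB-like cells by log2 ratios of 3.13 (2.67 to 3.61) and 2.77 (2.54 to 2.99). MatrixFB-like and MyoFB-like cells together held most Thbs2 UMIs of bleomycin FBs (39.7% and 37.4%, then 49.8% and 21.8%), while lymphocytes held 12.9 and 5.81 CPM.

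Within MatrixFB-like cells, Thbs2 was higher with bleomycin after a single dose (log2 ratio 1.31, 0.57 to 2.13) and after repetitive doses (0.38, 0.18 to 0.60). In the repetitive clusters the log2 ratio was 0.31 in G (0.0019 to 0.62), 0.91 in K (0.32 to 1.51) and 0.32 in O (-0.064 to 0.71). These ratios were below those over all FBs. MatrixFB-like cells were 7.91% and 20.7% of single-dose FB barcodes and 10.8% and 28.4% of repetitive ones, and with 1 library a condition such shares cannot be told apart from differences in sorting and cell recovery.

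Thbs4 was at 0 to 6 UMIs in PBS FBs and at 202 to 1000 UMIs with bleomycin. The single-dose PBS FBs held 0 UMIs and the bleomycin FBs 202 UMIs, or 20.7 CPM (17.9 to 23.7), at least 41.2-fold higher against a limit of 3 UMIs over the PBS FBs, a bound that leaves out the counting error of the bleomycin UMIs (the exact 95% lower limit of the ratio itself is 33.2-fold). The repetitive PBS FBs held 6 UMIs, or 0.103 CPM (0.038 to 0.22), and the bleomycin FBs 1000 UMIs, or 17.6 CPM (16.6 to 18.8), a log2 ratio of 7.42 (6.29 to 8.87). Both experiments gave the same direction and similar bleomycin levels.

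MyoFB-like cells carried most of it. They were 8.31% and 6.01% of the bleomycin FB barcodes and held 184 of 202 (91.1%) and 809 of 1000 (80.9%) of the Thbs4 UMIs, at 123 and 186 CPM. Injured FB-like cells held 2.26 and 0.775 CPM, below MyoFB-like cells by log2 ratios of 5.77 (5.01 to 6.64) and 7.91 (7.26 to 8.65). Lymphocytes of the bleomycin libraries held 0 and 2 UMIs and smooth muscle or mural-like cells 0 UMIs.

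Even in MyoFB-like cells, Thbs4 was counted in a minority. It was seen in 17 of 65 and 68 of 475 MyoFB-like barcodes (26.2% and 14.3%, or 11.1% and 9.47% after thinning). A single barcode held 47 of the 202 UMIs and another 143 of the 1000. Outside MyoFB-like cells, Thbs4 reached 10.4 CPM in MatrixFB-like cells after repetitive bleomycin (125 UMIs), mostly from cluster G (102 UMIs, 14.2 CPM against 2.26 CPM with PBS). The unnamed cluster R (116 barcodes, a median of 910 UMIs), with Ptx3 and Has1 among its leading genes, held 114 CPM.

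**Figure D3:**
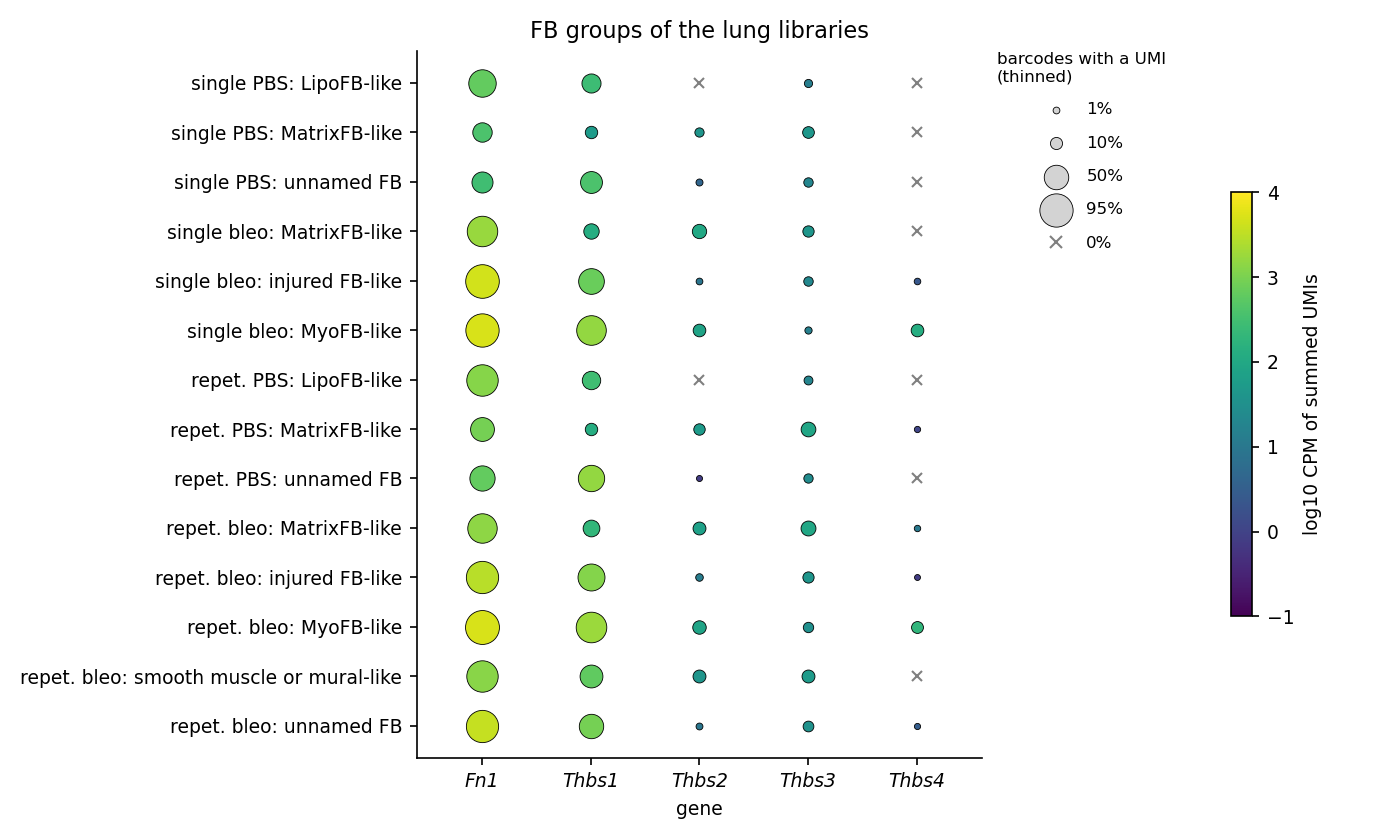
Levels of the genes in FB groups of the lung libraries with at least 50 barcodes (color, log10 CPM of summed UMIs; area, percent of barcodes with a UMI after thinning to 2000 UMIs; crosses, 0% after thinning). Thbs4 is largest in the MyoFB-like cells of both bleomycin libraries (123 and 186 CPM), and Thbs2 in MatrixFB-like and MyoFB-like cells.

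The DNA upstream of Thbs2 and Thbs4 is shown because both were higher with bleomycin in both experiments. The RefSeq promoter table (GRCm38.p6) had an entry for 3 of the 5 members, and the 250 bases before the start were searched on both strands for 3 motifs: TGANTCA (AP-1), CAGAC (a SMAD box) and GGAATG (TEAD). Of 32851 promoters of the same length, 6.75%, 42.2% and 12.6% held them. The windows are chr17:14694263-14694512 for Thbs2 and chr13:92794819-92795068 for Thbs4, both written 5′ to 3′ on the minus strand, with matches in capitals (GTCTG and CATTCC are the reverse complements of CAGAC and GGAATG).
Thbs2: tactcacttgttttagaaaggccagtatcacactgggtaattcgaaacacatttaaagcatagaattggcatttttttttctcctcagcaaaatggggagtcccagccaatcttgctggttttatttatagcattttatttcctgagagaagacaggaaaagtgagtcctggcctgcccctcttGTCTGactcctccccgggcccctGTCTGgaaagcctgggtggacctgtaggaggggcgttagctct
Thbs4: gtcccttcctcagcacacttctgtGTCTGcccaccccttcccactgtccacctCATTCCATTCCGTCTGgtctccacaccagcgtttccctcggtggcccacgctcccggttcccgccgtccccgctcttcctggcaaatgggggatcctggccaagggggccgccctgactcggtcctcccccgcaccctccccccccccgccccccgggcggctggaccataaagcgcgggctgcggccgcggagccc
Thbs2 held 2 matches of the SMAD box, and Thbs4 held 2 of the SMAD box and 2 of the TEAD motif that share a base. Neither held the AP-1 letters. A match is a description of the letters and no sign of binding. The Thbs3 window held none of the 3 motifs.

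Thbs3 was the member past 2-fold in neither lung experiment. It was at 17.6 CPM (14.4 to 21.3) and 22.6 CPM (19.7 to 25.8) in single-dose FBs, a log2 ratio of 0.36 (0.022 to 0.71). It was at 29.1 CPM (27.7 to 30.5) and 49.8 CPM (48.0 to 51.7) in repetitive FBs, a log2 ratio of 0.78 (0.69 to 0.86). Both levels were slightly higher with bleomycin, and reads of the overlapping Mtx1 could be counted with Thbs3 where strand was not used.

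Among the named FB groups, Thbs3 was highest in MatrixFB-like cells. MatrixFB-like cells held 45.1 and 43.1 CPM in the single-dose libraries and 87.2 and 96.7 CPM in the repetitive libraries. MyoFB-like cells held 14.1 and 31.3 CPM, below MatrixFB-like cells by log2 ratios of 1.61 (0.86 to 2.42) and 1.63 (1.37 to 1.89). Lymphocytes of these bleomycin libraries held 12.9 CPM (5.56 to 25.4, 8 UMIs) and 21.8 CPM (15.9 to 29.1, 45 UMIs). The single-dose MyoFB-like level thus cannot be told from that of lymphocytes. Within MatrixFB-like cells, bleomycin over PBS gave log2 ratios of -0.067 (-0.85 to 0.77) and 0.15 (-0.017 to 0.32), both intervals including 0.

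**Figure D4:**
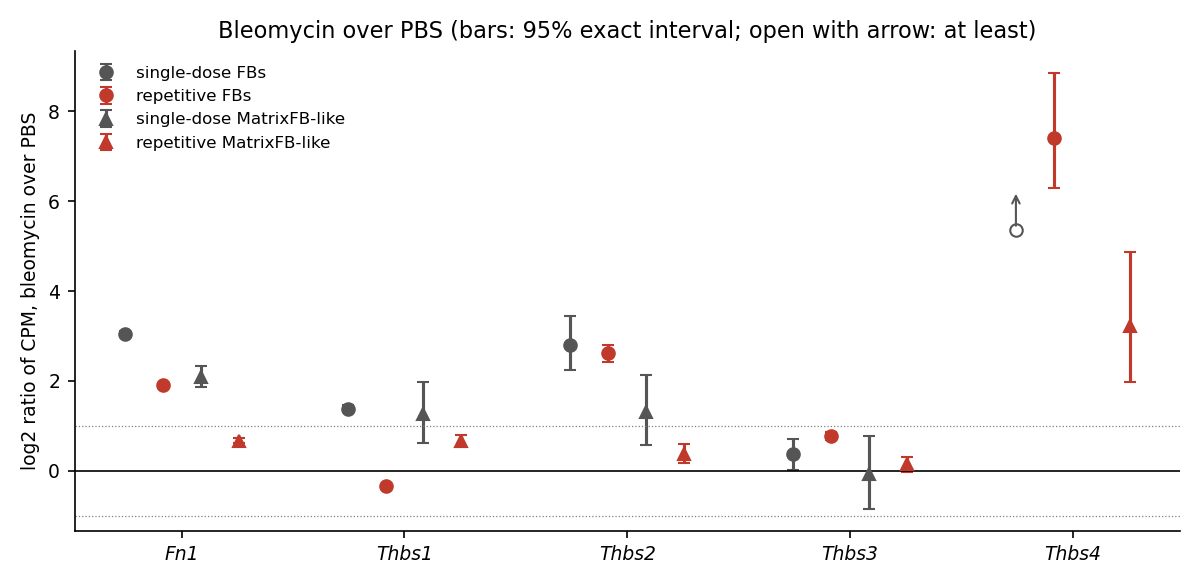
Log2 ratio of CPM, bleomycin over PBS, for all FBs (circles) and MatrixFB-like cells (triangles) of the single-dose (grey) and repetitive (red) experiments, with 95% exact intervals; the open circle with an arrow is a lower bound, dotted lines mark 2-fold, and single-dose MatrixFB-like Thbs4 has too few UMIs to draw. Ratios in all FBs run from -0.34 (Thbs1, repetitive) to 7.42 (Thbs4, repetitive), and MatrixFB-like ratios of Fn1, Thbs2 and Thbs4 lie nearer to 0 than those of all FBs.

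The receptors and partners of these proteins were read in the same FBs from 6 lists of 10 to 12 genes. The counts that follow stand beside 8.72% of all genes past 2-fold higher and 4.44% past 2-fold lower after a single dose, and 10.5% and 3.61% after repetitive doses. Of 12 fibronectin matrix partners, 8 were past 2-fold higher after a single dose and 7 after repetitive doses, and 0 past 2-fold lower, with medians of 1.89 and 1.23 on the log2 scale beside 0.065 and 0.12 for all genes. Tnc, tenascin-C of wound matrix, had the highest log2 ratio after a single dose (4.64; 12.9 and 321 CPM), and Postn, periostin, after repetitive doses (4.34; 2.31 and 46.8 CPM). The lowest were Fbln1, a fibulin that binds fibronectin (-0.26), and Ltbp1, which anchors latent TGF-β in the matrix (-0.43).

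Of 9 fibronectin receptors with enough UMIs in the single-dose experiment, 2 were past 2-fold higher and 1 lower, and of 11 in the repetitive one, 2 higher and 1 lower, with medians of 0.70 and 0.25. Itga5, the alpha subunit of the main fibronectin receptor, was highest after a single dose (log2 ratio 2.61; 4.68 and 28.5 CPM) and Itgb3, a beta subunit, after repetitive doses (1.53; 1.05 and 3.04 CPM). Itga8, an alpha subunit of alveolar FBs, was lowest in both (-1.16 and -1.08).

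The 10 thrombospondin receptors gave 2 past 2-fold higher and 1 lower in both experiments, beside 8.72% and 4.44%, then 10.5% and 3.61%, of all genes, with medians of 0.21 and 0.13. Sdc1, the heparan sulfate proteoglycan syndecan-1, was highest in both (3.17 and 3.17), and Cd36, a scavenger receptor, was lowest (-1.09 and -2.49; 6.52 and 3.07 CPM, then 6.23 and 1.11 CPM). Of the thrombospondin relatives, 1 of 6 and 4 of 11 were past 2-fold higher and 0 lower, with medians of 0.18 and 0.67. Adamtsl2, a secreted protein with thrombospondin repeats, was highest after a single dose (1.06) and Adamtsl4 lowest (-0.84). After repetitive doses Comp, the other pentameric member of the family, was highest (4.41; 9 and 186 UMIs) and the protease Adamts1 lowest (-0.93).

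Among 12 TGF-β genes, 2 and 3 were past 2-fold higher (8.72% and 10.5% of all genes) and 0 lower (medians 0.74 and 0.54). Ltbp2, a microfibril protein, had the highest ratio in both (5.45 and 5.59; 9.202 and 403 CPM, then 10.3 and 499 CPM), and Tgfbi (-0.41) and the inhibitor Smad7 (-0.56) the lowest. The 12 early response genes went the other way, with 0 past 2-fold higher and 11 and 5 lower (4.44% and 3.61% of all genes, medians -1.21 and -0.91). Atf3, a stress-induced transcription factor, was lowest in both (-2.23 and -1.89), and Cyr61 (-0.88) and Ier2 (-0.52) were nearest to 0.

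Over 24 cell groups of the lung libraries with at least 50 barcodes, the profiles most like Fn1, Thbs1 and Thbs2 were named among 10279 genes. For Fn1 they were the collagen genes Col5a2 (Pearson's r 0.892) and Col16a1 (0.884) and the collagen hydroxylase P3h1 (0.871). For Thbs1 they were Scube1 (0.865), Nrcam (0.849) and Rcan1 (0.824), and for Thbs2 the transcription factor Sox9 (0.934), Mmp23 (0.925) and Cd248 (0.921), a surface protein of FBs and pericytes. Fn1 and Thbs1 correlated at 0.617 with each other and Thbs1 and Thbs2 at -0.022. The groups come from 4 libraries and share depth and free RNA within each. Cd248 is also a MatrixFB marker by which groups were named, so its likeness to Thbs2 is not independent of the grouping.

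In organoids, the 5 genes were compared between cells grown with normal or fibrogenic FBs. Fn1 in FBs was at 2418 CPM (2409 to 2427; 1990 FBs) with normal and 2403 CPM (2395 to 2411; 3728 FBs) with fibrogenic FBs, a log2 ratio of -0.0091 (-0.016 to -0.0018). Both were far above the PBS lung levels, and the organoid and lung libraries were processed separately. Of 15913 genes, 1.69% were at least 2-fold higher and 2.72% at least 2-fold lower, and 0 of 5 members were among them.

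The thrombospondins of organoid FBs differed little too. Thbs1 was at 1295 and 1430 CPM (normal and fibrogenic; log2 ratio 0.14, 0.13 to 0.15) and Thbs2 at 51.7 and 74.3 CPM (0.52, 0.48 to 0.57). Thbs3 was at 11.2 and 10.5 CPM (-0.099, -0.21 to 0.010) and Thbs4 at 0.524 and 0.404 CPM (57 and 61 UMIs; -0.38, -0.92 to 0.17). Single barcodes held 25 of the 57 and 44 of the 61 Thbs4 UMIs. Thbs4 was scarce in FBs in which 5 of 6 MyoFB markers reached 10 CPM.

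Across organoid FB clusters of at least 50 barcodes, Fn1 ran from 1206 to 3888 CPM and Thbs1 from 609 to 2793 CPM. In cluster K, Thbs1 was highest in both libraries (2388 and 2793 CPM), and so was Thbs2 (112 and 168 CPM). Thbs2 was higher with fibrogenic FBs in 6 of 8 clusters with at least 50 barcodes in both libraries, at log2 ratios of 0.36 to 1.11, and the intervals of the other 2 (G and I) included 0.

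Fn1 was also high in epithelial cells that matched the PATS markers. PATS (pre-alveolar type 1 transitional state) cells arise as AEC2s turn into AEC1s, the flat gas-exchange cells, and are known to accumulate in fibrotic lung. PATS-like cells held 2897 CPM of Fn1 (2864 to 2931; 262 barcodes) in normal organoids and 2065 CPM (2041 to 2089; 538 barcodes) in fibrogenic organoids. The log2 ratio of fibrogenic over normal was -0.49 (-0.51 to -0.46), and the FBs of the same libraries held 2418 and 2403 CPM.

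The other epithelial cells held far less Fn1. AEC2-like cells were at 43.0 CPM (41.2 to 44.8; 1190 barcodes) and 66.0 CPM (63.4 to 68.7; 1279 barcodes), and AEC1-like cells at 80.1 and 88.6 CPM. Cycling AEC2-like cells were at 98.9 and 76.1 CPM. PATS-like cells exceeded AEC2-like cells by 67.5-fold (log2 ratio 6.08, 6.01 to 6.14) in normal and 31.3-fold (4.97, 4.91 to 5.03) in fibrogenic organoids. With cells chosen barcode by barcode the log2 ratios were 4.00 and 3.55, and with the mean of barcodes' CPM 5.41 and 3.71. In this comparison 19.3% of 13087 genes and 17.4% of 12937 genes were at least 2-fold higher in PATS-like cells.

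The contrast held by share of barcodes. After thinning, which left out 44 and 169 PATS-like and 59 and 270 AEC2-like barcodes, Fn1 was seen in 87.6% and 82.1% of PATS-like cells against 7.43% and 16.8% of AEC2-like cells. Unthinned, these were 85.5%, 87.7%, 58.2% and 64.03%. Where the Fn1 UMIs of AEC2-like cells came from was not tested.

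PATS-like barcodes were checked for FB RNA. All 6 PATS markers reached 10 CPM in them, at a summed level of 8393 and 8550 CPM (892 and 833 CPM in AEC2-like cells). FB markers summed to 568 and 517 CPM against 9562 and 9642 CPM in FBs, and 5 and 6 of 6 were detected. MyoFB markers summed to 2617 and 1814 CPM in PATS-like cells and to 24367 and 17759 CPM in FBs. Thbs2, at 51.7 and 74.3 CPM in FBs, was at 0.201 CPM (2 UMIs) and 4.21 CPM (58 UMIs) in PATS-like cells. The part of FB RNA in the Fn1 level of PATS-like cells was not tested.

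Depth split the PATS-like cells. A deep cluster (202 and 288 barcodes, medians of 43008.5 and 41562.5 UMIs) held 2929 and 2076 CPM of Fn1, close to all PATS-like cells. A shallow cluster (60 and 250 barcodes, medians of 1211.5 and 1497.5 UMIs) held 665 and 1757 CPM, in the opposite order between normal and fibrogenic organoids.

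Of the thrombospondins, Thbs1 was also higher in PATS-like than in AEC2-like cells, at 373 and 310 CPM against 94.0 and 93.3 CPM (log2 ratios 1.99, 1.93 to 2.05, and 1.73, 1.67 to 1.80), and well under the FB level. Thbs3 had the reverse order, at 1.51 and 2.32 CPM in PATS-like, 5.39 and 11.2 CPM in AEC2-like and 17.3 and 27.3 CPM in AEC1-like cells, the last above the FBs. Thbs2 was at 0.201 and 4.21 CPM in PATS-like cells, a log2 ratio of fibrogenic over normal of 4.39 (2.47 to 7.47) that rests on 2 and 58 UMIs. PATS-like over AEC2-like cells, its log2 ratio was -1.46 (-4.58 to 0.52; 2 and 28 UMIs) in normal and 1.65 (1.07 to 2.23; 58 and 48 UMIs) in fibrogenic organoids. Thbs4 had 0 UMIs in PATS-like, AEC2-like and AEC1-like cells of both libraries, against a limit of 3 UMIs in each.

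**Figure D5:**
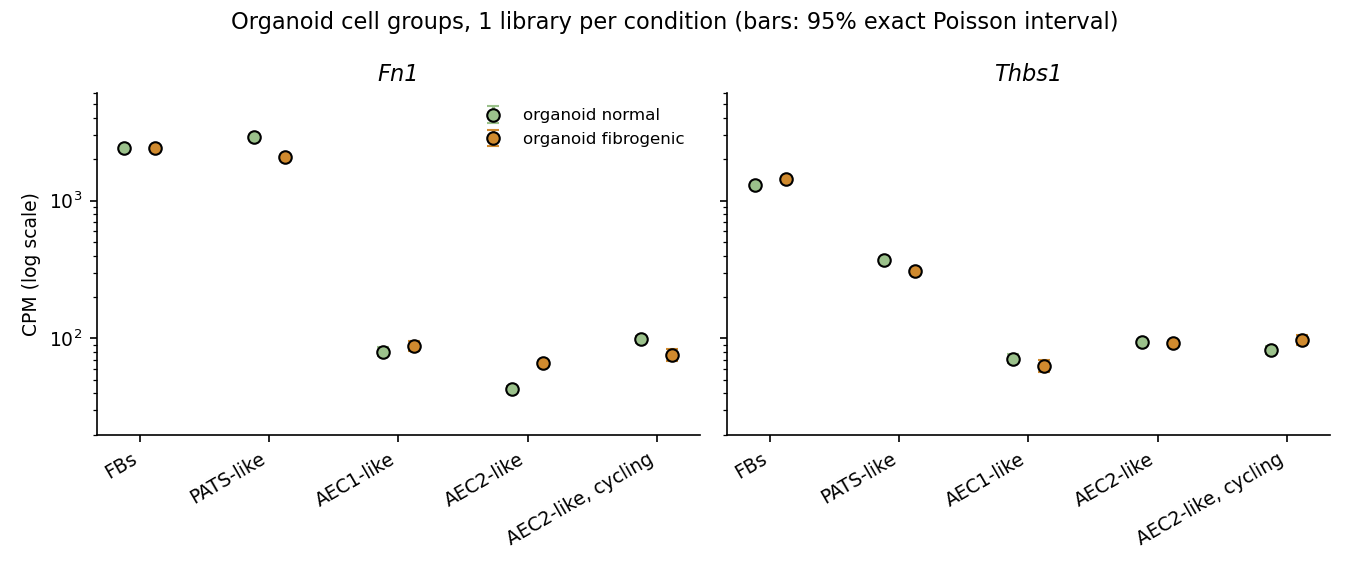
Level of Fn1 and Thbs1 in organoid cell groups with normal or fibrogenic FBs, in CPM on a log scale; 95% exact Poisson intervals are smaller than most points. Fn1 of PATS-like cells (2897 and 2065 CPM) lies beside that of FBs and far above AEC1-like and AEC2-like cells (43.0 to 98.9 CPM), whereas Thbs1 of PATS-like cells lies between FBs and the other epithelial cells.

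In organoid FBs the lists were read against 1.69% of all genes past 2-fold higher and 2.72% past 2-fold lower. Past 2-fold higher were 0 of 12 receptors, 0 of 12 matrix partners, 0 of 10 thrombospondin receptors, 1 of 11 relatives, 0 of 12 TGF-β genes and 0 of 12 early response genes, and past 2-fold lower were 2, 0, 0, 3, 1 and 0. Itga8 was the lowest receptor (log2 ratio -1.56) and the epithelial integrin subunit Itgb6 the highest (0.55). Spon1, a secreted relative with thrombospondin repeats, was the lowest of its list (-1.58) and Thsd7a the highest (1.04). Tgfbi was the lowest TGF-β gene (-1.38).

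Within 2-fold were Fbln1 (0.82) and Tnc (-0.27) among matrix partners, Calr (0.33) and Cacna2d1 (-0.57) among thrombospondin receptors, and Klf4 (0.62) and Ier2 (-0.44) among early response genes. In PATS-like cells, 1.03% of 11626 genes were at least 2-fold higher with fibrogenic FBs and 0.972% at least 2-fold lower. There, 2 of 12 matrix partners were past 2-fold higher, Fbln1 (log2 ratio 2.89; 21 and 215 UMIs) and Postn (1.12; 18 and 54 UMIs), and the TGF-β gene Ltbp2 was past 2-fold lower (-1.10; 46.7 and 21.7 CPM). The median of the matrix partners was -0.25, beside -0.025 for all genes. The part of FB RNA in the Fbln1 and Postn counts was not tested.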

How the data were processed

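Single-cell RNA sequencing libraries (Chromium) of 6 samples were analysed, 1 library per condition and 3 pooled mice per library. The authors deposited unnormalized UMI counts per gene and barcode for each library. The submitters' processing notes name Cell Ranger 3.0.1 and Seurat 3, with the mouse genome build mm10 (GRCm38), and the tables of the single-dose mice carry older gene symbols of Gencode M17. No deposited per-sample column was left unused (0 columns).

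The counts were read with Python 3.11.15, numpy 2.4.6, scipy 1.17.1 and pandas 2.3.3. The libraries of each experiment were clustered together with scanpy 1.11.5 and igraph 0.11.9 (Leiden resolution 1, 2000 variable genes, 30 principal components, 20 neighbors), with the 5 genes and the pathway lists left out. Within each cluster, barcodes whose mitochondrial or erythrocyte share exceeded the median by over 3 scaled MADs were dropped (46 to 638 a library), as were clusters above 25% mitochondrial or 0.5% erythrocyte counts. No doublet caller was run, and FB clusters with at least 2 markers of another cell type among their 10 leading genes were set apart as mixed. A cluster was named from at least 3 detected markers of a type (2 for FBs of the lung as a whole). FB groups also needed 50% of their markers raised at least 2-fold over the other FB clusters. Clusters below that stayed unnamed, so groups may differ from those of the study.

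Levels are CPM of summed counts with exact 95% Poisson intervals, shares have exact binomial (Clopper-Pearson) intervals, and log2 ratios carry exact conditional intervals without a pseudocount. Genes with at least 50 UMIs over both libraries entered the background. A group needed at least 50 barcodes to be described, except the single-dose lymphocytes, macrophages and monocytes, which were read beside the FBs. Against 0 UMIs, ratios are bounds at 3 UMIs over the group. Barcodes were thinned to 2000 UMIs for shares. With 1 library per group no p-value was computed. The ratio code was tested on simulated data. Figures were drawn with matplotlib 3.10.9.

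The members and gene lists were chosen with earlier results of these data known. Besides the 5 members, the genes named were the highest and lowest of each list by log2 ratio and the 3 genes most like Fn1, Thbs1 and Thbs2 in log2(CPM + 1), among genes that reached 20 CPM in a group. One gene that this rule names is not reported here. The genes named in PATS-like cells and those leading a cluster were named after their values were seen. Alternatives were a 1 CPM pseudocount, the mean of barcodes' CPM, centering on the median of all genes, Leiden resolution 2, a minimum of 2000 UMIs per barcode, all barcodes, and cells chosen barcode by barcode.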

Additional observations from a re-analysis of the deposited data

Results flagged for a closer look

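Thbs1 stood out for going opposite ways in the 2 lung experiments. Its log2 ratio of bleomycin over PBS in FBs was 1.39 after a single dose (286 and 748 CPM) and -0.34 after repetitive doses (1183 and 932 CPM). Lymphocytes of the single-dose PBS library held 238 CPM, so the PBS level of FBs there cannot be told from theirs. MatrixFB-like cells of that library held 52.3 CPM, so the lymphocyte level is no floor for FBs. Each experiment had 1 library per condition, and the difference between the ratios was not tested.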

How the results depend on the processing

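Of 79 alternatives over 14 log2 ratios, 57 lay within the counting interval, 22 lay outside it and 0 changed sign. With the mean of barcodes' CPM, Fn1 and Thbs1 of single-dose FBs came to 2.89 and 1.28, Thbs4 to 4.98, Fn1 of repetitive FBs to 1.71 and of organoid FBs to -0.079, Fn1 of PATS-like cells (fibrogenic over normal) to -0.17, and PATS-like over AEC2-like to 5.41 (normal) and 3.71 (fibrogenic). Relative to the median of all genes, Fn1 was 2.99 (single) and 1.79 (repetitive), and Thbs1 and Thbs3 of repetitive FBs were -0.47 and 0.66. A pseudocount of 1 CPM gave 4.44 and 4.08 for Thbs4 (single and repetitive) and 2.39 for Thbs2 (repetitive), which shrinks ratios of low levels by construction. All barcodes gave 1.88 for Fn1 and -0.37 for Thbs1 (repetitive). Cells chosen barcode by barcode gave 1.88 for Fn1 and 2.80 for Thbs2 (repetitive), -0.43 for PATS-like cells, and 4.00 (normal) and 3.55 (fibrogenic) for PATS-like over AEC2-like. Apart from the pseudocount, the cause was not tested.

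The deep PATS-like cluster alone, an alternative chosen after seeing the data, gave -0.50, and the shallow cluster alone had the opposite sign (1.40). No paired analysis was possible because each group has 1 library and the results come from no test, and no replicate could be left out. Thbs4 with PBS rests on 0 and 6 UMIs, and the repetitive bleomycin and fibrogenic organoid libraries hold many barcodes under 2000 UMIs. At least 2000 UMIs were held by 6044 of 10737 barcodes with repetitive bleomycin and 5813 of 6139 with repetitive PBS. In organoids these were 5918 of 8894 (fibrogenic) and 4575 of 5441 (normal), so depth went with condition.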
